A study of Mus musculus with 18 samples.

Results

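A set of 31 genes of cholesterol synthesis, of SREBP2 and its processing, and of cholesterol esterification, transport and receptor turnover was followed in mouse liver. They were picked by gene symbol alone, and each was represented by the probe set with that symbol whose mean over all 18 arrays was highest. Of the 31 genes, 26 were matched to a probe set with 1 gene symbol, out of 12394 genes measured in this way. Acat2, Insig1, Mbtps2, Soat1 and Soat2 were not matched and are not analysed here, and the 31 genes do not cover every step of the pathway. The 26 fall into 7 enzymes of the early pathway, from acetyl-CoA to farnesyl diphosphate, 12 enzymes of the late pathway, from squalene to cholesterol, 4 genes of SREBP2 and its processing, and 3 genes of transport, efflux and receptor turnover.

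The 18 arrays measured liver RNA of male C57BL/6J mice, 10 to 16 weeks old, of 3 genotypes: wild type (WT), liver Fxr knockout (LKO, whose source label is AFXR Cre+) and whole body Fxr knockout (WBKO). FXR, encoded by Nr1h4, is the nuclear receptor for bile acids. Each genotype received vehicle or GW4064, a synthetic FXR agonist, by oral gavage in 2 doses on an evening and the following morning, and livers were taken 2 h after the last dose, with 3 arrays in each of the 6 groups. The sample labels give 150 mg/kg for GW4064 in every genotype. The methods, which describe WT mice, state a lower dose given once more and an overnight fast, and which applied cannot be read from the arrays. The promoter that drives Cre is not given in the sources used here. The same WT arrays were the control for both knockouts, and no Cre-negative or littermate control is named, so genotype and the breeding of each line cannot be told apart. Enterocyte knockout mice that the design mentions are not analysed here. Nothing in the labels beyond the replicate number says that arrays came from separate animals, so p-values measure the spread between these arrays.

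Cholesterol is made from acetyl-CoA through mevalonate, isoprenoid diphosphates, squalene and lanosterol, in a chain of enzymes whose genes are largely controlled together. Their common activator SREBP2 is held in the endoplasmic reticulum by SCAP and INSIG proteins when sterols are plentiful, and when sterols are scarce it moves to the Golgi, is cut by proteases, and enters the nucleus. In liver the end product is exported in lipoproteins or turned into bile acids, a conversion that FXR restrains through SHP.

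The tissue label was borne out by hepatocyte markers, of which 5 of 5 were measured with gene means between 13.6 and 14.9 on the log2 scale. Nr1h4 was 9.08 ± 0.29 with vehicle in WT and 4.46 ± 0.17 in LKO and 4.20 ± 0.072 in WBKO livers (log2, mean ± SD, n = 3 each), lower by 24.5-fold and 29.3-fold (limma, adjusted p = 2.94e-12 and 1.19e-12). Nr0b2, which encodes SHP, rose 3.6-fold with GW4064 in WT (limma, adjusted p = 0.0433), and its log2 differences were 0.91 in LKO (adjusted p = 0.894) and -0.75 in WBKO (adjusted p = 0.794). Cyp7a1, the rate-limiting enzyme of bile acid synthesis, had a log2 difference of -2.87 with GW4064 in WT (adjusted p = 0.111). Without the pair of arrays that stood apart, described next, the Nr0b2 difference in WT was 1.34 on the log2 scale and did not pass (adjusted p = 0.0508). Array medians lay between 5.96 and 6. The arrays with the widest spread around the gene medians were WT GW4064 replicate 1 and WBKO GW4064 replicate 3, with interquartile ranges of 0.259 and 0.231 against 0.127 at the lowest, and counts of the sterol genes are also given without them. In WT GW4064 livers the median of 19 acute-phase genes, whose products rise in inflammation, stood 1.39, 1.16 and 0.22 above the WT vehicle mean on the 3 arrays (log2), and that of 4 of 5 neutrophil markers at 1.29, 0.60 and -0.052. These 4 markers were dim, with gene means between 4.23 and 5.23, below the array medians. Over the 6 groups 8 of the 19 and 0 of the 4 passed, against 6.08% of all genes. The part of either list in the results below was not tested.

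Over the 6 groups, 12 of the 26 measured genes differed (limma moderated F test, adjusted p below 0.05), against 6.08% of all genes. All 12 were synthesis enzymes: Hmgcs1, Mvk, Pmvk, Idi1 and Fdps of the early pathway, and Fdft1, Sqle, Lss, Cyp51, Msmo1, Nsdhl and Dhcr7 of the late pathway. None of the 4 genes of SREBP2 processing and none of the 3 genes of transport and turnover passed. In each of those 12 genes, the group mean was highest in WBKO livers with vehicle and lowest in LKO livers with GW4064, and all 3 LKO GW4064 arrays lay below all 3 WT vehicle arrays. The distance between the highest and the lowest group mean ranged from 1.78-fold for Mvk to 4.42-fold for Msmo1. Those 12 genes were picked by a test on the same arrays, so this order and separation only describe them. The share of all genes separated in this way was not computed. Of all 19 enzymes, 17 had their highest group mean in WBKO with vehicle, and 15 their lowest in LKO with GW4064. For these counts too a share over all genes was not computed, and the enzymes moved together from array to array. Leaving out the 2 arrays that stood apart gave 13 genes in place of 12.

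**Figure D1:**
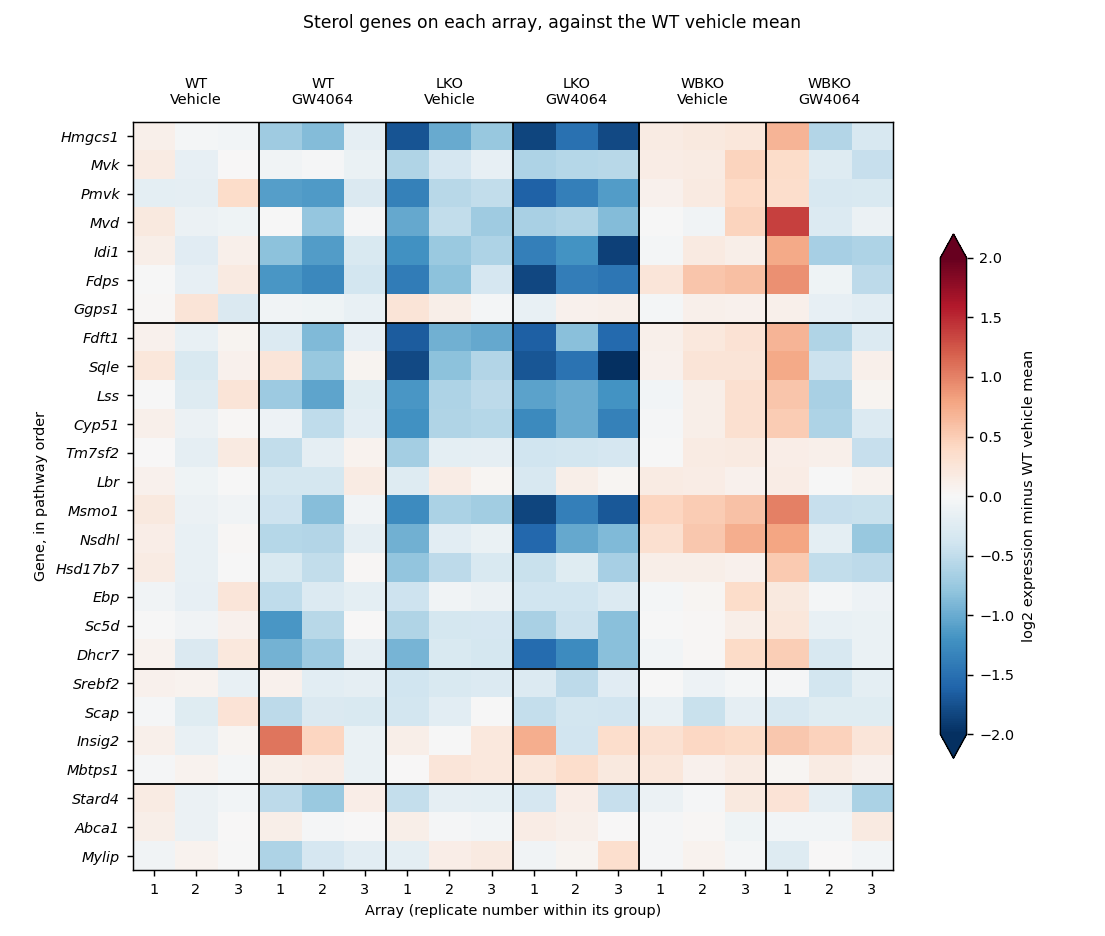
Heat map of the 26 measured genes (rows, in pathway order, with lines between the early pathway, late pathway, SREBP2 processing and transport genes) on the 18 arrays (columns), coloured by log2 expression minus the mean of the 3 WT vehicle arrays. Both LKO groups are blue over most enzyme rows, WBKO with vehicle is pale red, and WBKO GW4064 replicate 1 holds the highest of the 18 values for 14 of the 26 genes.

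Promoters of members that moved together were read for known sites. The stretches shown are the 250 bases before the annotated start, 5′ to 3′ on the gene's own strand, from RefSeq on GRCm38.p6. The first 4 belong to the genes with a promoter entry that passed over the 6 groups and were lowest in LKO against WT with vehicle: Hmgcs1 at the entry to the pathway (chr13:119690101-119690350, plus strand), the late enzyme Msmo1 (chr8:64733579-64733828, minus strand), Idi1 of the early pathway (chr13:8885356-8885605, plus strand) and the late enzyme Cyp51 (chr5:4104698-4104947, minus strand). The other is that of Abca1, whose group means differed least (chr4:53159896-53160145, minus strand). Capitals mark letters of a sterol regulatory element, TCACNCCAC, the site of SREBP proteins, and of the CCAAT box, CCAAT, the site of NF-Y, on which SREBP-driven genes are known to depend. Both were searched on both strands, so a CCAAT box on the other strand appears as ATTGG. The motifs share no letters with each other in these stretches.
Hmgcs1: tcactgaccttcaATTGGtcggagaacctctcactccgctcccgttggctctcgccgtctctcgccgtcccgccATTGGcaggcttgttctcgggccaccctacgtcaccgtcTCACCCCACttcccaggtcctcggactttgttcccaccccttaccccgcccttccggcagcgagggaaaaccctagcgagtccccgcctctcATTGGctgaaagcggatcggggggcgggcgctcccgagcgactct
Msmo1: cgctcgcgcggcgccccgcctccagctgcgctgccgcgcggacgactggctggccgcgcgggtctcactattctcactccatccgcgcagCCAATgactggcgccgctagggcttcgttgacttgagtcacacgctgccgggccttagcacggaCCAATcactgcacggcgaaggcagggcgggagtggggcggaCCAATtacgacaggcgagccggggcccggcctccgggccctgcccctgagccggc
Idi1: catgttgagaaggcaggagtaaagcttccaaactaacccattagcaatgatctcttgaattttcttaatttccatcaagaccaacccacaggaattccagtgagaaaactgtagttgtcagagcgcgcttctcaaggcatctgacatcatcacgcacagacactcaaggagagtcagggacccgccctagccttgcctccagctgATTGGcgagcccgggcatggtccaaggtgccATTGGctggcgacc
Cyp51: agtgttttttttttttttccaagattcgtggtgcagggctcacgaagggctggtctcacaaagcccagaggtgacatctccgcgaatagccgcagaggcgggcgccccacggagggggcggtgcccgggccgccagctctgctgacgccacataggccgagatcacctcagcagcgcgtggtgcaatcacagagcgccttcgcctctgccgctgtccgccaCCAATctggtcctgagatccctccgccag
Abca1: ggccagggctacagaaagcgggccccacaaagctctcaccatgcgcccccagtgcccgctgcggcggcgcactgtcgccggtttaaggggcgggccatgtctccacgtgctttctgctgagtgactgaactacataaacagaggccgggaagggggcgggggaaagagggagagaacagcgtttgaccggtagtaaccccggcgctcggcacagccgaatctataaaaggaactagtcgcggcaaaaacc
The Hmgcs1 stretch held TCACNCCAC once, 137 bases before the start, and CCAAT 3 times, 237, 176 and 45 bases before it. The Msmo1 stretch held CCAAT 3 times, Idi1 2 times, Cyp51 once, and the Abca1 stretch held neither motif. Of the 31 genes, 26 had a promoter entry (Fdps, Sqle, Fdft1, Stard4 and Soat2 did not), and TCACNCCAC was found in 1 of them, against 1.05% of all 32851 promoter stretches and 1.22% of 27025 genes. CCAAT was found in 21 of the 26, against 33.8% of stretches and 37.5% of genes. A match is a run of letters and not a shown site, and Ggps1, Insig2 and Mylip, whose array profiles did not follow that of the enzymes, held CCAAT as well.

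Hmgcs1 makes HMG-CoA from acetyl-CoA units. Its values, like those of the genes after it, are log2 expression on replicates 1, 2 and 3. With vehicle, Hmgcs1 was 12.62, 12.47 and 12.47 in WT, 10.80, 11.51 and 11.77 in LKO and 12.69, 12.72 and 12.75 in WBKO. With GW4064, Hmgcs1 was 11.81, 11.66 and 12.34 in WT, 10.69, 11.04 and 10.72 in LKO and 13.20, 11.93 and 12.21 in WBKO. Every LKO array of Hmgcs1 lay below every WT and WBKO array, except that LKO vehicle replicate 3 passed 1 WT GW4064 array, and the 6 groups differed (adjusted p = 0.00177).

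Mvk, mevalonate kinase, adds the first phosphate to mevalonate. With vehicle, Mvk was 7.94, 7.62 and 7.78 in WT, 7.18, 7.44 and 7.63 in LKO and 7.93, 7.94 and 8.23 in WBKO. With GW4064, Mvk was 7.71, 7.77 and 7.65 in WT, 7.17, 7.21 and 7.22 in LKO and 8.15, 7.53 and 7.33 in WBKO. The Mvk values of WBKO with vehicle were above all LKO arrays, and those of WBKO with GW4064 spread from 7.33 to 8.15 (groups, adjusted p = 0.0373). Pmvk adds the next phosphate. With vehicle, Pmvk was 8.22, 8.23 and 8.78 in WT, 7.06, 7.86 and 7.92 in LKO and 8.51, 8.59 and 8.82 in WBKO. With GW4064, Pmvk was 7.31, 7.28 and 8.12 in WT, 6.79, 7.05 and 7.29 in LKO and 8.76, 8.09 and 8.10 in WBKO. All 6 LKO arrays of Pmvk lay below the WT and WBKO vehicle arrays, and 2 WT GW4064 arrays fell among them (groups, adjusted p = 0.00567). Mvd then removes the carboxyl group. With vehicle, Mvd was 6.94, 6.63 and 6.65 in WT, 5.72, 6.24 and 6.03 in LKO and 6.73, 6.66 and 7.18 in WBKO. With GW4064, Mvd was 6.73, 5.97 and 6.72 in WT, 6.09, 6.14 and 5.87 in LKO and 8.11, 6.46 and 6.62 in WBKO. The WBKO GW4064 array at 8.11 stood above the other 17 arrays of Mvd, the next of which was at 7.18, and the groups did not pass the test (adjusted p = 0.128).

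Idi1 interconverts the isoprenoid building blocks. With vehicle, Idi1 was 11.37, 11.02 and 11.35 in WT, 10.03, 10.51 and 10.63 in LKO and 11.22, 11.42 and 11.37 in WBKO. With GW4064, Idi1 was 10.42, 10.13 and 10.94 in WT, 9.88, 10.06 and 9.37 in LKO and 12.01, 10.59 and 10.63 in WBKO. The Idi1 arrays of WT with vehicle were above all LKO arrays, and 2 of the 3 WT GW4064 arrays fell among the LKO vehicle arrays (groups, adjusted p = 0.0169). Fdps joins these units to farnesyl diphosphate. With vehicle, Fdps was 12.08, 11.92 and 12.28 in WT, 10.69, 11.27 and 11.76 in LKO and 12.33, 12.66 and 12.70 in WBKO. With GW4064, Fdps was 10.93, 10.81 and 11.72 in WT, 10.28, 10.71 and 10.66 in LKO and 13.02, 12.00 and 11.57 in WBKO. The WBKO vehicle arrays of Fdps were above all WT and LKO arrays, and 2 WT GW4064 arrays stood below 2 of the 3 LKO vehicle arrays (groups, adjusted p = 0.0048). Ggps1, which makes geranylgeranyl diphosphate for protein prenylation and so lies off the sterol branch, stayed between 6.06 and 6.61 on the 18 arrays (adjusted p = 0.696).

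Fdft1, squalene synthase, is the first step committed to sterols. With vehicle, Fdft1 was 10.84, 10.61 and 10.81 in WT, 9.10, 9.79 and 9.73 in LKO and 10.85, 10.97 and 11.04 in WBKO. With GW4064, Fdft1 was 10.49, 9.87 and 10.59 in WT, 9.11, 9.91 and 9.20 in LKO and 11.43, 10.15 and 10.48 in WBKO. Every LKO vehicle array of Fdft1 was below every WT and WBKO vehicle array (groups, adjusted p = 0.00654). Sqle, squalene epoxidase, is a control point of the pathway. With vehicle, Sqle was 9.82, 9.29 and 9.68 in WT, 7.79, 8.78 and 9.02 in LKO and 9.68, 9.86 and 9.86 in WBKO. With GW4064, Sqle was 9.84, 8.84 and 9.66 in WT, 7.88, 8.12 and 7.50 in LKO and 10.36, 9.16 and 9.70 in WBKO. The 6 LKO arrays of Sqle, up to 9.02, were below all WT vehicle and all WBKO arrays, and 1 WT GW4064 array, at 8.84, fell among them (groups, adjusted p = 0.00445).

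Lss closes the rings of lanosterol. With vehicle, Lss was 8.88, 8.62 and 9.15 in WT, 7.73, 8.26 and 8.37 in LKO and 8.82, 8.99 and 9.21 in WBKO. With GW4064, Lss was 8.15, 7.83 and 8.64 in WT, 7.81, 7.90 and 7.69 in LKO and 9.44, 8.23 and 8.94 in WBKO. The 6 LKO arrays of Lss were below all WT vehicle and WBKO vehicle arrays, and with GW4064 the WT arrays reached down to them (groups, adjusted p = 0.0195). Cyp51 removes a methyl group from lanosterol. With vehicle, Cyp51 was 9.70, 9.49 and 9.63 in WT, 8.39, 9.004 and 9.03 in LKO and 9.58, 9.73 and 9.93 in WBKO. With GW4064, Cyp51 was 9.51, 9.09 and 9.40 in WT, 8.34, 8.62 and 8.26 in LKO and 10.12, 8.99 and 9.33 in WBKO. No LKO array of Cyp51, under either treatment, reached any WT array (groups, adjusted p = 0.00703).

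Msmo1 oxidises the methyl groups that are next removed from the sterol. With vehicle, Msmo1 was 11.04, 10.73 and 10.77 in WT, 9.59, 10.21 and 10.15 in LKO and 11.28, 11.36 and 11.44 in WBKO. With GW4064, Msmo1 was 10.43, 10.00 and 10.78 in WT, 9.01, 9.48 and 9.16 in LKO and 11.85, 10.38 and 10.40 in WBKO. The WBKO vehicle arrays of Msmo1 were above all WT arrays, and the 6 LKO arrays were below the WT vehicle arrays (groups, adjusted p = 0.00369). Nsdhl acts after Msmo1 in the same removal. With vehicle, Nsdhl was 10.51, 10.22 and 10.39 in WT, 9.41, 10.17 and 10.23 in LKO and 10.69, 10.92 and 11.10 in WBKO. With GW4064, Nsdhl was 9.80, 9.79 and 10.19 in WT, 8.80, 9.35 and 9.50 in LKO and 11.17, 10.18 and 9.62 in WBKO. The WBKO vehicle arrays of Nsdhl were above all WT and LKO arrays, and LKO vehicle overlapped WT vehicle by 1 array (groups, adjusted p = 0.0251).

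Ebp shifts the sterol double bond. With vehicle, Ebp was 11.98, 11.89 and 12.29 in WT, 11.64, 11.98 and 11.93 in LKO and 12.01, 12.09 and 12.41 in WBKO. With GW4064, Ebp was 11.54, 11.77 and 11.85 in WT, 11.65, 11.66 and 11.78 in LKO and 12.25, 12.01 and 11.96 in WBKO. The Ebp arrays of WT with vehicle lay above those with GW4064, and the LKO vehicle arrays overlapped the WT vehicle arrays (groups, adjusted p = 0.0891). Sc5d adds a double bond after Ebp. With vehicle, Sc5d was 12.73, 12.66 and 12.81 in WT, 12.14, 12.38 and 12.40 in LKO and 12.73, 12.76 and 12.86 in WBKO. With GW4064, Sc5d was 11.58, 12.18 and 12.74 in WT, 12.09, 12.31 and 11.89 in LKO and 12.97, 12.58 and 12.60 in WBKO. The array of WT GW4064 at 11.58 was the lowest of Sc5d (groups, adjusted p = 0.0762). Dhcr7 makes cholesterol in the last step of its branch. With vehicle, Dhcr7 was 10.31, 9.95 and 10.45 in WT, 9.31, 9.93 and 9.88 in LKO and 10.18, 10.27 and 10.62 in WBKO. With GW4064, Dhcr7 was 9.28, 9.51 and 10.06 in WT, 8.69, 8.98 and 9.40 in LKO and 10.72, 9.92 and 10.10 in WBKO. The LKO GW4064 arrays of Dhcr7 lay below all WT and WBKO vehicle arrays (groups, adjusted p = 0.0132). Tm7sf2 and Lbr, which both encode a reductase of the same sterol double bond, and Hsd17b7, a ketoreductase of demethylation, had group means within 1.39-fold, 1.25-fold and 1.57-fold and did not pass.

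Srebf2 encodes SREBP2, which also activates its own gene. With vehicle, Srebf2 was 7.66, 7.65 and 7.42 in WT, 7.18, 7.27 and 7.31 in LKO and 7.57, 7.47 and 7.53 in WBKO. With GW4064, Srebf2 was 7.66, 7.36 and 7.39 in WT, 7.29, 7.05 and 7.35 in LKO and 7.55, 7.21 and 7.37 in WBKO. The group means of Srebf2 stayed within 1.27-fold and did not pass (groups, adjusted p = 0.149). All LKO arrays of Srebf2 lay below all WT arrays, a separation whose share over all genes was not computed. Scap is the escort of SREBP2 to the Golgi. With vehicle, Scap was 9.88, 9.66 and 10.17 in WT, 9.54, 9.69 and 9.89 in LKO and 9.75, 9.46 and 9.73 in WBKO. With GW4064, Scap was 9.38, 9.62 and 9.60 in WT, 9.43, 9.53 and 9.52 in LKO and 9.58, 9.65 and 9.65 in WBKO. The vehicle arrays of WT were the most spread of Scap, and all 3 were above the WT GW4064 arrays (groups, adjusted p = 0.217). Mbtps1 is the protease that cuts SREBP2 first. With vehicle, Mbtps1 was 7.93, 8.03 and 7.93 in WT, 7.97, 8.20 and 8.17 in LKO and 8.19, 8.04 and 8.13 in WBKO. With GW4064, Mbtps1 was 8.09, 8.11 and 7.84 in WT, 8.19, 8.31 and 8.15 in LKO and 8.00, 8.12 and 8.04 in WBKO. The Mbtps1 arrays stayed between 7.84 and 8.31 (adjusted p = 0.329). Insig2, which retains the complex of SREBP2 and SCAP, ranged from 10.83 to 12.29, with its highest array in WT with GW4064 (adjusted p = 0.64).

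Mylip encodes IDOL, the ligase that marks lipoprotein receptors for breakdown. With vehicle, Mylip was 7.93, 8.08 and 8.00 in WT, 7.81, 8.13 and 8.18 in LKO and 7.98, 8.08 and 7.97 in WBKO. With GW4064, Mylip was 7.38, 7.66 and 7.79 in WT, 7.94, 8.06 and 8.34 in LKO and 7.75, 8.01 and 7.95 in WBKO. The WT GW4064 arrays of Mylip were below all WT vehicle arrays, and the lowest 2 of the 18 were among them (groups, adjusted p = 0.112). Abca1, the cholesterol efflux pump, stayed between 11.2 and 11.51 with group means within 1.08-fold (adjusted p = 0.921). Stard4, a sterol carrier, stayed between 8.1 and 9.12 with group means within 1.32-fold (adjusted p = 0.667).

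**Figure D2:**
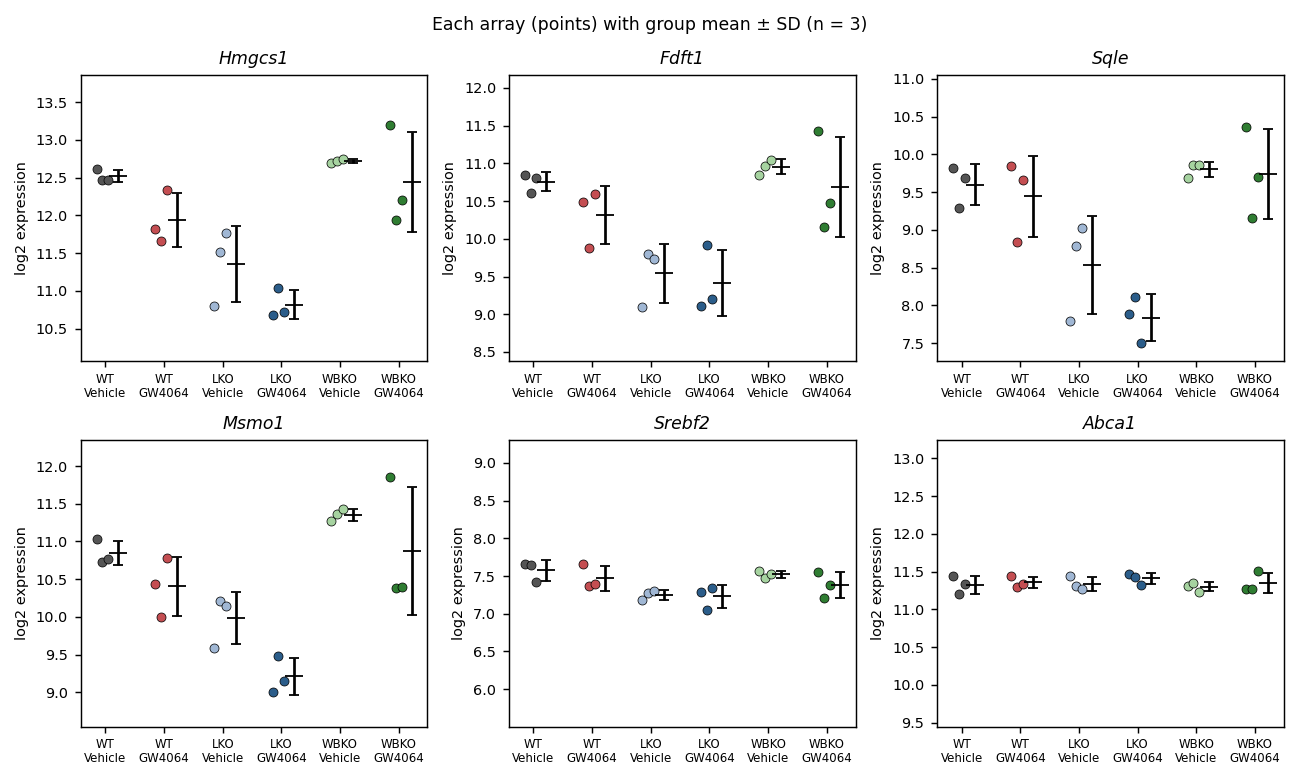
Log2 expression of 6 genes on each array (coloured points, replicates 1 to 3 from left to right) by group, with the group mean ± SD (black, n = 3); every panel spans the same number of log2 units. For Hmgcs1, Fdft1, Sqle and Msmo1 the LKO arrays are low and 1 WBKO GW4064 array is high, whereas Srebf2 and Abca1 lie almost flat at this scale.

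Loss of FXR was first compared with WT under vehicle. Between LKO and WT livers, 0 of the 26 genes passed (limma, adjusted p below 0.05), against 0.879% of all genes, and the methods' t-test, which is unpaired, with the same adjustment also called 0. Before adjustment, 15 of 26 were lower in LKO with p below 0.05 and 0 higher, against 12.6% of all genes in either direction. The lowest differences were those of Fdft1, -1.21 on the log2 scale (SE 0.28, 2.32-fold, adjusted p = 0.0545), Hmgcs1, -1.16 (SE 0.27, 2.24-fold, adjusted p = 0.0536), Sqle, -1.07 (SE 0.32, adjusted p = 0.144), and next in p, Cyp51, -0.80 (SE 0.22, adjusted p = 0.115). The median difference was -0.43 over the 26 genes and -0.74 over the 19 enzymes, against -0.0092 over all genes, and 21 of 26 lay below 0 against 52.7% of all genes. In 15 of 26 genes all LKO arrays lay below all WT arrays, against 10.5% of all genes lower in this way. These were 13 enzymes together with Srebf2 and Stard4. Single arrays decided whether any gene passed: without LKO vehicle replicate 3, WT GW4064 replicate 2, WT GW4064 replicate 3 or LKO GW4064 replicate 2 the count was 1, without WBKO GW4064 replicate 2 or replicate 3 it was 2, and without WBKO GW4064 replicate 1 it was 4. It was 2 without the 2 arrays that stood apart. Other lists moved with this contrast: the median of 7 of 8 Kupffer cell and macrophage markers was 0.37, 0.25 and 0.21 in LKO and -0.0012, 0.12 and -0.098 in WT with vehicle, relative to the WT vehicle mean, and that of the 19 acute-phase genes 0.28, 0.34 and 0.15 in LKO and 0.050, -0.076 and -0.033 in WT. That of 9 genes of fasting and feeding was -0.31, -0.56 and -0.13 in LKO and 0.014, 0.068 and -0.091 in WT. The arrays of LKO and WT did not overlap in any of these lists, and 0 of the 7, 0 of the 19 and 0 of the 9 genes passed. The part of these lists in the differences of the sterol genes was not tested.

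In WBKO against WT livers with vehicle, 0 of 26 genes passed, against 1.14% of all genes, and the methods' t-test also called 0. Only Scap had an unadjusted p below 0.05, 1 of 26 against 13.3% of all genes, with a log2 difference of -0.26 (SE 0.12, adjusted p = 0.368). The next in p were Mbtps1 at 0.16 (adjusted p = 0.471), Nsdhl at 0.53 (adjusted p = 0.473) and Msmo1 at 0.51 (adjusted p = 0.495). All 19 enzymes had a difference above 0, with a median of 0.14 and a largest value of 0.53, where the median of all genes was -0.012. The 95% interval for Hmgcs1, -0.37 to 0.77, leaves room for changes of either sign. The median of 7 stellate cell and fibroblast markers was 0.41, 0.23 and 0.42 in WBKO and -0.12, -0.077 and 0.20 in WT with vehicle. That of 8 endothelial markers was 0.30, 0.30 and 0.20 in WBKO and -0.095, 0.012 and 0.039 in WT. Neither list overlapped, and 1 of the 7 and 0 of the 8 passed, against 1.14% of all genes. The part of these lists was not tested.

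The knockouts differed from each other with vehicle. Hmgcs1 was 2.57-fold higher in WBKO than in LKO livers (log2 difference 1.36, SE 0.27, adjusted p = 0.0374), Fdft1 2.67-fold (1.42, SE 0.28, adjusted p = 0.0378), and Msmo1 2.59-fold (1.37, SE 0.30, adjusted p = 0.0494). These 3 were all that passed of 26, all higher, against 0.678% of all genes. Before adjustment, 18 of 26 were higher with p below 0.05 and 0 lower, against 12.2% of all genes, and in 20 of 26 all WBKO arrays lay above all LKO arrays, against 11% of all genes. The median difference was 0.63 over the 26 genes and 0.89 over the enzymes, against -0.0064 over all genes. The calls were at the edge of the threshold: with a trended and robust prior or with the methods' t-test 0 genes passed, leaving out any 1 of the 6 arrays compared left 0 or 1, and leaving out WBKO GW4064 replicate 1, which enters only the estimate of the spread, gave 8. Without the 2 arrays that stood apart, 4 genes passed. The 3 comparisons with vehicle share their arrays in pairs, so they are not independent of each other.

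Other genes moved with this contrast. Of 9 genes of fasting and feeding, Igfbp1 and Pdk4, which are induced in fasting, rose in WBKO against LKO with vehicle, by 2.48 (adjusted p = 0.0219) and 1.14 (adjusted p = 0.0399) on the log2 scale, and the median of the 9 stood at -0.31, -0.56 and -0.13 on the LKO vehicle arrays and 0.11, 0.19 and -0.13 on the WBKO vehicle arrays, relative to WT. The median of 7 stellate cell and fibroblast markers was -0.067, -0.24 and -0.022 in LKO and 0.41, 0.23 and 0.42 in WBKO with vehicle, with no member of the list past the threshold between them. Without the 2 arrays that stood apart, Reln and Dcn were higher in WBKO and passed (Dcn 0.80, adjusted p = 0.0055). The median of 8 of 8 endothelial markers was -0.0017, 0.063 and 0.058 in LKO and 0.30, 0.30 and 0.20 in WBKO, also with 0 of 8 past the threshold and no overlap. Their part in the differences of the sterol genes was not tested. In a bulk tissue, fewer hepatocytes and less RNA per hepatocyte cannot be told apart, and the median of the 5 hepatocyte markers stayed between -0.15 and 0.048 on all 18 arrays.

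**Figure D3:**
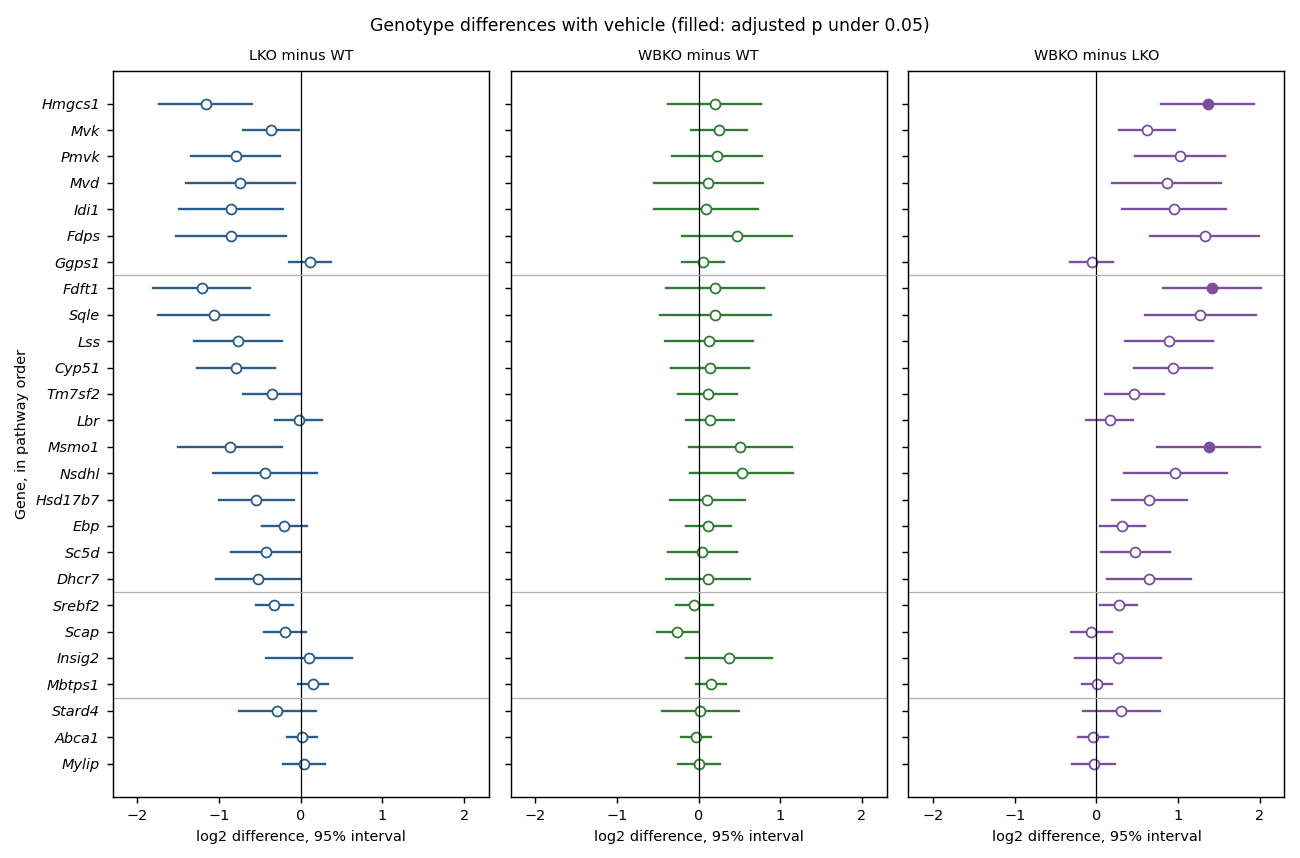
Log2 differences between genotypes with vehicle for the 26 genes in pathway order (points, with 95% intervals of the limma fit as bars; filled points have an adjusted p below 0.05). Nearly all enzymes are to the left of 0 for LKO minus WT and to the right for WBKO minus LKO, and the 3 filled points are Hmgcs1, Fdft1 and Msmo1.

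With GW4064, 1 of the 26 genes differed between LKO and WT livers, against 1.06% of all genes. Sqle was 3.06-fold lower in LKO, a fall of 1.61 on the log2 scale (SE 0.32, adjusted p = 0.0201). Unadjusted p-values below 0.05 were found for 10 lower and 2 higher genes, against 14% of all genes in either direction, and the 2 higher were Mbtps1 (0.21, adjusted p = 0.292) and Mylip (0.50, adjusted p = 0.0615). The median was -0.32 over the 26 genes, against -0.0032 over all genes. Without the 2 arrays that stood apart, 0 genes passed and the Sqle difference was -1.41 (adjusted p = 0.102). Leaving out WT GW4064 replicate 1, LKO GW4064 replicate 1 or LKO GW4064 replicate 3 also left 0, whereas leaving out WT GW4064 replicate 3 gave 2, WBKO GW4064 replicate 2 gave 3, LKO vehicle replicate 1 or WBKO GW4064 replicate 3 gave 4, and WBKO GW4064 replicate 1 gave 5.

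Between WBKO and WT livers with GW4064, 0 of 26 genes passed, against 4.64% of all genes, and the methods' t-test called 0. The unadjusted p was below 0.05 for 7 higher and 0 lower genes (Pmvk, Fdps, Lss, Ebp, Sc5d, Dhcr7 and Mylip), against 19% of all genes in either direction. Fdps had the largest difference, 1.04 (SE 0.32, adjusted p = 0.0729). The median difference of 0.29 became 0.34 without the 2 arrays that stood apart, and 0.051 without WBKO GW4064 replicate 1. That array held the highest value of the 18 for 13 of the 19 enzymes, and the other 2 WBKO GW4064 arrays had enzyme medians of -0.31 and -0.28 relative to WT with vehicle, against 0.52 for it. Leaving out WT GW4064 replicate 3 gave 3 genes in place of 0, and leaving out WBKO GW4064 replicate 2 or replicate 3 gave 1. Between the same livers 4 of 7 stellate cell and fibroblast markers rose and 5 of 19 acute-phase genes fell. Of 9 fasting and feeding genes 3 rose and 1 fell. Without the 2 arrays that stood apart, 3 of the stellate markers rose, 1 acute-phase gene fell and 2 fasting genes rose. The part of these lists was not tested.

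Averaging each genotype over both treatments, a comparison chosen after the values were seen, set 6 arrays against 6. In LKO against WT, 8 of 26 genes fell and 0 rose, against 3.74% of all genes in either direction. Sqle fell by 1.34 on the log2 scale (adjusted p = 0.00306), Hmgcs1 by 1.14 (adjusted p = 0.00275), Fdft1 by 1.06 (adjusted p = 0.00649) and Msmo1 by 1.03 (adjusted p = 0.0119). The others were Cyp51, -0.86 (adjusted p = 0.00557), Idi1, -0.79 (adjusted p = 0.0476), Mvk, -0.44 (adjusted p = 0.0443), and the regulator itself, Srebf2, -0.28 (adjusted p = 0.0473). For Cyp51 and Srebf2 all 6 LKO arrays lay below all 6 WT arrays, a separation whose share over all genes was not computed. Without the 2 arrays that stood apart 6 genes fell, and Idi1 and Srebf2 no longer passed (adjusted p = 0.0543 and 0.109). Leaving out 1 array at a time gave from 5 to 12 genes. The count was 5 without WT vehicle replicate 1, WT GW4064 replicate 1, LKO vehicle replicate 1 or 2, LKO GW4064 replicate 1 or 2, or WBKO vehicle replicate 1 or 2, and 12 without WBKO GW4064 replicate 1.

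In WBKO against WT averaged in the same way, 0 of 26 passed, against 7.25% of all genes. By unadjusted p below 0.05, 8 enzymes were higher, against 22.3% of all genes, with Fdps the largest at 0.76 (SE 0.22, adjusted p = 0.0503). Leaving out WT GW4064 replicate 3 gave 3 genes in place of 0, and leaving out LKO vehicle replicate 1 or replicate 3, or WBKO GW4064 replicate 2 or replicate 3, or both arrays that stood apart, gave 1. In the same averaged comparison 5 of 7 stellate cell and fibroblast markers and 2 of 8 endothelial markers rose. These counts were 4 and 2 without both arrays that stood apart. Of 19 acute-phase genes 3 fell, and of 9 fasting and feeding genes 3 rose. The part of these lists was not tested.

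In WBKO against LKO averaged over treatments, 15 of the 26 genes rose and 0 fell, against 5.74% of all genes, 6 of 7 in the early pathway and 9 of 12 in the late pathway. Sqle rose 3.01-fold (adjusted p = 0.000895), Msmo1 2.86-fold (adjusted p = 0.000755), Hmgcs1 2.82-fold (adjusted p = 0.000488) and Fdps 2.8-fold (adjusted p = 0.00128). The rest, in order, were Fdft1 (2.54-fold), Pmvk (2.21-fold), Idi1 (2.18-fold), Nsdhl (2.05-fold), Cyp51 (2.01-fold), Lss (1.97-fold), Mvd (1.92-fold), Dhcr7 (1.91-fold), Sc5d (1.46-fold), Mvk (1.46-fold) and Ebp (1.27-fold). Ggps1, Tm7sf2, Lbr and Hsd17b7 were the enzymes that did not pass, with log2 differences of -0.083, 0.38, 0.14 and 0.46. The count was 17 without the 2 arrays that stood apart. Across both treatments Dcn and Pdgfrb, stellate cell and fibroblast markers, were also higher in WBKO than in LKO, by 0.64 and 0.66 (adjusted p = 0.0101 and 0.00432). Reln was higher and passed as well without the 2 arrays that stood apart. The part of these markers was not tested.

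GW4064 was next compared with vehicle within each genotype. In WT, 0 of 26 genes passed, against 0.194% of all genes, and the methods' t-test called 0. Before adjustment, with p below 0.05, 10 of 26 were lower and 0 higher, against 12.6% of all genes in either direction. The smallest p-values were those of Pmvk, with a log2 difference of -0.84 (SE 0.26, adjusted p = 0.202), Mylip, -0.39 (SE 0.12, adjusted p = 0.213), Scap, -0.37 (SE 0.12, adjusted p = 0.22), and Fdps, -0.94 (SE 0.32, adjusted p = 0.227). The median over the 26 genes was -0.35, against -0.0040 over all genes, and 23 of 26 lay below 0 against 51.2% of all genes. In 9 of 26 (Hmgcs1, Pmvk, Idi1, Fdps, Fdft1, Nsdhl, Ebp, Scap and Mylip) all GW4064 arrays lay below all vehicle arrays, against 7.64% of all genes. The 3 GW4064 arrays were unequal, with enzyme medians of -0.49, -0.73 and -0.16 relative to WT with vehicle, the 2 lower ones on the arrays with the higher acute-phase levels. The median of 8 of 8 endothelial markers was -0.81, -0.34 and -0.11 with GW4064 and -0.095, 0.012 and 0.039 with vehicle, and that of 7 of 8 stellate cell and fibroblast markers -0.61, -0.33 and -0.20 with GW4064 and -0.12, -0.077 and 0.20 with vehicle. That of 9 genes of fasting and feeding was -0.20, -0.27 and -0.22 with GW4064 and 0.014, 0.068 and -0.091 with vehicle. The endothelial, stellate cell and fasting lists did not overlap between the treatments, and 0 of their genes passed. The part of these lists in the differences of the sterol genes was not tested. Without the 2 arrays that stood apart 0 genes passed and the median was -0.30, and without WT GW4064 replicate 3, 2 genes passed.

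In LKO livers, 0 of 26 passed with GW4064, against 0% of all genes, and in WBKO livers also 0, against 0% of all genes. The methods' t-test called 0 in both. Unadjusted p-values fell below 0.05 for 6 genes lower in LKO, against 5.02% of all genes, with Msmo1 at -0.77 (SE 0.30, adjusted p = 0.919) and Dhcr7 at -0.68 (SE 0.24, adjusted p = 0.875). In WBKO the count was 1, Mvk at -0.37 (adjusted p = 0.785), against 6.25% of all genes. The median was -0.18 over the 26 genes in LKO, where 19 lay below 0, and -0.15 in WBKO, where 23 did. The matching median and share below 0 of all genes are not given here, so these values only describe the 26 genes. The WBKO median was -0.062 without the 2 arrays that stood apart and -0.36 without WBKO GW4064 replicate 1.

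The GW4064 effect was not found to differ between genotypes. For WT minus LKO, WT minus WBKO and LKO minus WBKO, 0 of 26 interactions passed, against 0%, 0% and 0% of all genes. At an unadjusted p below 0.05 the counts were 1, 0 and 0, against 7.46%, 8.21% and 4.87% of all genes, and the 1 was Mylip, -0.46 for WT minus LKO (SE 0.18, adjusted p = 0.589). With 3 arrays a group the intervals are wide: for Hmgcs1 the difference of effects between WT and LKO was -0.038 with a 95% interval of -0.84 to 0.77. Averaged over the 3 genotypes, the effect of GW4064 passed in 0 of 26 genes, against 0.0242% of all genes. At an unadjusted p below 0.05, 13 were lower and 0 higher, against 9.59% of all genes, with Pmvk at -0.58 (SE 0.15, adjusted p = 0.214) and Fdps at -0.67 (SE 0.18, adjusted p = 0.244). All 19 enzymes lay below 0, with a median of -0.30, against -0.0052 over all genes. Without WT GW4064 replicate 3 or without WBKO GW4064 replicate 1, 1 gene passed.

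**Figure D4:**
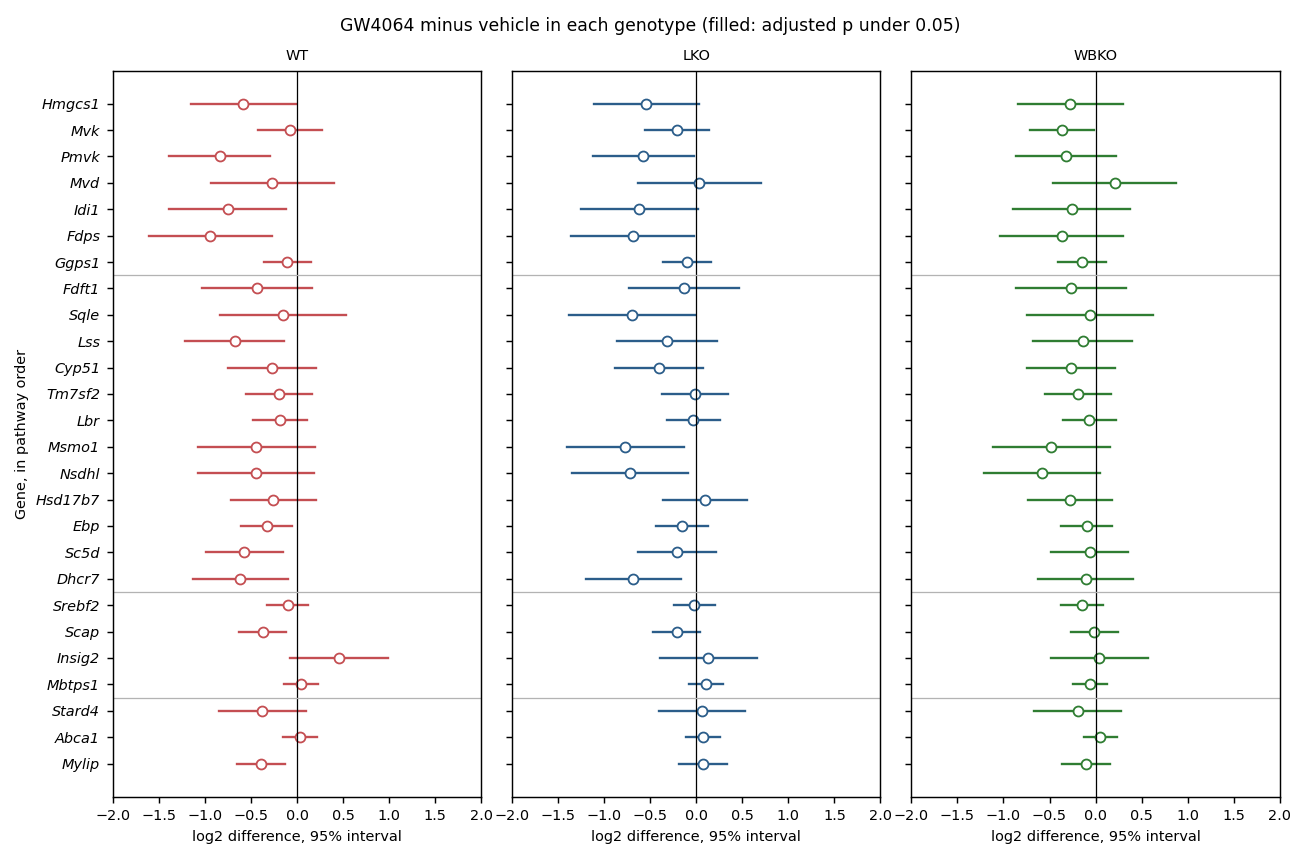
Log2 differences of GW4064 minus vehicle in each genotype for the 26 genes in pathway order (points, with 95% intervals of the limma fit as bars; no point has an adjusted p below 0.05). Most enzymes lie to the left of 0 in all 3 panels, and most intervals reach 0.

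The levels of the enzymes moved together from array to array. Pearson's r between pairs of the 19 enzymes over the 18 arrays had a median of 0.827 (171 pairs), and 0.667 after each group's mean was removed, values that share the arrays' RNA and normalization and are given as a description. The enzymes nearest to their common mean were Hmgcs1 and Msmo1 (r = 0.982 each), which are part of that mean. Ggps1 did not follow it (r = -0.037), nor did Insig2 (r = -0.0159), Mylip (r = -0.0881), Abca1 (r = -0.442) or Mbtps1 (r = -0.428), and Srebf2 stood between (r = 0.636). The array medians of the enzymes were 0.093, -0.15 and 0.055 in WT, -1.02, -0.53 and -0.35 in LKO and 0.082, 0.16 and 0.33 in WBKO with vehicle, relative to the WT vehicle mean. With GW4064 these medians were -0.49, -0.73 and -0.16 in WT, -1.27, -0.98 and -0.88 in LKO and 0.52, -0.31 and -0.28 in WBKO. All 3 LKO vehicle arrays were below all 3 WT vehicle arrays, and the GW4064 arrays of LKO were all at or below -0.88.

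Among genes outside the set, the 10 whose profile over the 18 arrays was most like the enzymes' mean were Erg28 (r = 0.946), Rdh11 (0.92), Haus7 (0.917), Acly (0.901), Nudt2 (0.9), Tecr (0.881), 1110004F10Rik (0.879), Gpam (0.876), Zfyve21 (0.873) and Cxadr (0.87). Without the 2 arrays farthest from the median of that mean, r was between 0.811 and 0.937. Erg28 encodes a scaffold of sterol demethylation, Acly makes acetyl-CoA in the cytosol, and Gpam starts glycerolipid synthesis.

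Genes that SREBP proteins also activate, most of them of fatty acid and acetyl-CoA synthesis, were set beside the sterol enzymes. Rdh11, a retinol dehydrogenase, is on this list but belongs to neither synthesis. Of 15 measured, 0 passed between LKO and WT with vehicle, with a median of -0.25, against 0.879% of all genes, and 1 (Rdh11) between WBKO and LKO, with a median of 0.63, against 0.678% of all genes. With GW4064, 5 of 15 (Acss2, Rdh11, Scd1, Elovl6 and Fads2) rose in WBKO against WT, by 1.32 for Acss2 and 0.69 for Scd1 (adjusted p = 0.0414 and 0.0309), against 4.64% of all genes. Leaving out both arrays that stood apart left 0 of these 15, with Acss2 at 1.09 (adjusted p = 0.139) and Scd1 at 0.54 (adjusted p = 0.286). Averaged over treatments, 7 of the 15 rose and 0 fell in WBKO against LKO, against 5.74% of all genes. In WBKO against WT averaged, 7 rose and 0 fell, against 7.25% of all genes. Without both arrays these counts were 6, and 4 (Acss2, Rdh11, Acaca and Gpam). Between LKO and WT with GW4064 the median of the 15 genes was 0.12, and that of the sterol enzymes -0.53. On the WT arrays the median of the 15 was -1.18, -0.56 and -0.13 with GW4064 and -0.014, -0.10 and 0.031 with vehicle, without overlap. Between these treatments 0 of 15 passed, against 0.194% of all genes. On the WBKO vehicle arrays it was 0.15, 0.24 and 0.53, also without overlap with WT vehicle, and 0 of 15 passed, against 1.14% of all genes. Of 17 other sterol genes, 3 differed over the 6 groups (Lipa, Scarb1 and Tmem97), against 6.08% of all genes. With GW4064, 2 of the 17 rose and 3 fell in WBKO against WT, against 4.64% of all genes. In LKO against WT 0 rose and 1 fell, against 1.06% of all genes. Scarb1, the receptor for high-density lipoprotein, fell in both knockouts against WT with GW4064, by 0.57 in LKO and 0.69 in WBKO (adjusted p = 0.0486 and 0.00611), comparisons that share the WT arrays. With both arrays that stood apart left out, the Scarb1 differences were -0.46 in LKO, which did not pass (adjusted p = 0.185), and -0.64 in WBKO (adjusted p = 0.0391). Scarb1 was then the only 1 of the 17 that passed in WBKO against WT with GW4064.

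**Figure D5:**
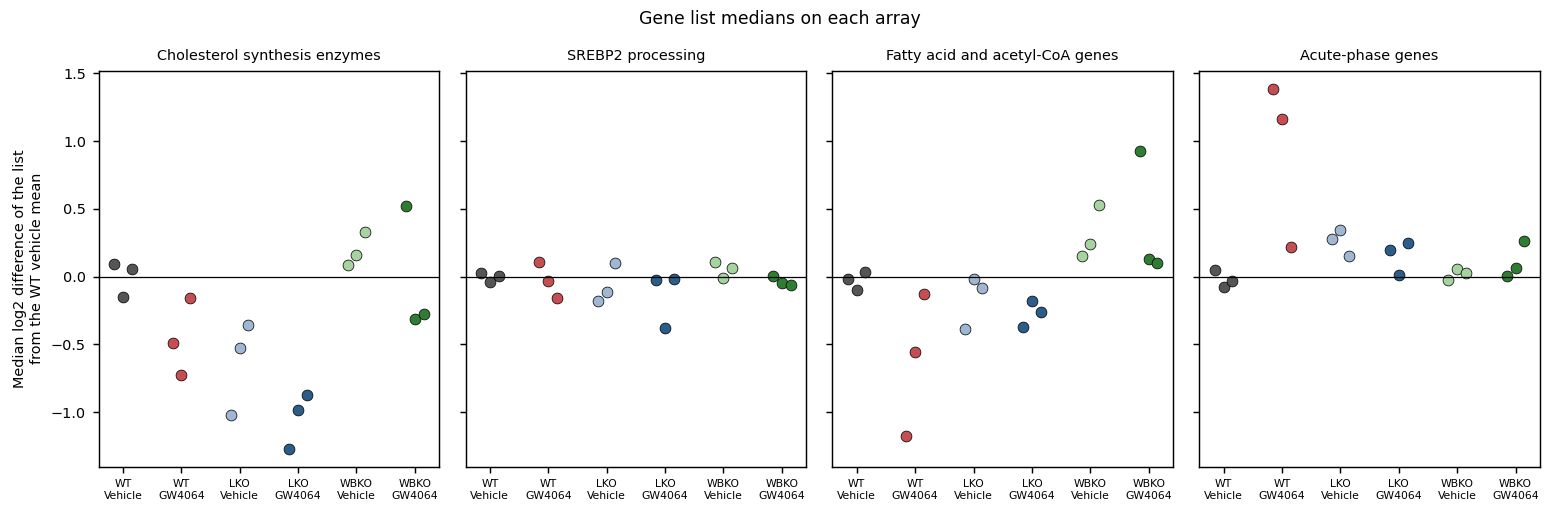
Median log2 difference of a gene list from the WT vehicle mean on each array (points), by group, for 19 cholesterol synthesis enzymes, 4 SREBP2 processing genes, 15 fatty acid and acetyl-CoA genes (a list that also holds Rdh11) and 19 acute-phase genes. The enzymes are low on all LKO arrays, the fatty acid list is above 0 on all WBKO arrays and low on WT GW4064 replicate 1, and the acute-phase list is high on WT GW4064 replicates 1 and 2.

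Probe sets of 1 gene were compared for direction. Of the 26 genes, 10 had 1 probe set and 16 had several. In 12 of these 16 all probe sets had the same sign between LKO and WT with vehicle, in 14 of 16 between WBKO and LKO, and in 11 of 16 between GW4064 and vehicle in WT. The genes whose probe sets differed in sign were Lss, Insig2, Mbtps1 and Abca1 in the first, Ggps1 and Abca1 in the next, and Ggps1, Lss, Srebf2, Mbtps1 and Abca1 in the last. The 4 probe sets of Hmgcs1 gave -1.16, -0.75, -0.87 and -1.19 between LKO and WT, and the bright ones of Fdft1 gave -1.21 and -1.23, where its dim ones gave -0.015 and -0.23. The other probe sets of Abca1 gave 0.33 and 0.64 between WBKO and LKO with vehicle, where the one used gave -0.041, and those of Ggps1 gave 0.16, -0.37 and -0.068, where the one used gave -0.060. The other probe sets of Mbtps1 gave -0.12 and -0.021 between LKO and WT with vehicle, where the one used gave 0.15. The values of these 3 genes therefore hold for the probe set used.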

How the data were processed

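RNA from 18 liver samples was hybridised to 1-colour oligonucleotide arrays. The deposited log2 values were made by the authors with RMA, which corrects the background, equalises the distributions of the arrays by quantile normalization and summarises the probes of a probe set. The RMA version was not stated. The methods name another array design than the one whose probe sets these values carry, so whether their stated test and thresholds describe these arrays was not settled. That step also evens out any global change between arrays. Array signals have no read depth, so precision is limited by the 3 arrays per group and by dim probe sets.

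From these values, 20393 of 22690 probe sets had 1 platform gene symbol, 691 several and 1606 none, and 12394 genes were kept with 1 probe set each, of which 12370 matched RefSeq by gene identifier. All 6 groups were fitted together with limma 3.58.1 in R 4.3.3 (12 residual and 4.59 prior degrees of freedom), with 2-sided tests, Benjamini-Hochberg adjustment over all genes and a threshold of 0.05. The script was tested on simulated data. Values on every array are given for members that passed in any comparison and for the 4 members with the smallest p for GW4064 in WT and for the vehicle contrasts of LKO and of WBKO with WT; other members are given by range. The members, lists and comparisons were chosen with earlier results of these data known. Promoters were searched in Python 3.11.15 and figures drawn with matplotlib 3.10.9. The alternatives were other priors, weights, normalizations, filters, probe set rules and fits, the replicate block, the methods' unpaired t-test, and each array left out. Whether replicate numbers pair the samples was not settled. Of 45 pairs of same-numbered arrays, 13 had deviations correlated above 0.1 (range -0.229 to 0.339), and arrays with different numbers were not compared.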

Additional observations from a re-analysis of the deposited data

How the results depend on the processing

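No difference of the 26 sterol genes that passed its test changed direction under any alternative, and the number of genes that differed over the 6 groups stayed between 9 and 14. Counts of passing genes near the threshold moved. For LKO against WT with vehicle (0 genes), the count was 3 with only the groups compared in the fit, 2 with array weights, 1 after quantile normalization, 2 without the 40% of genes with the lowest mean and 2 without the 2 arrays that stood apart. For WBKO against LKO with vehicle (3 genes), it was 12 with only the groups compared, 7 with array weights, and 0 with the trended and robust prior and with the methods' t-test. For LKO against WT with GW4064 (1 gene), it was 0 with the trended and robust prior, array weights, the methods' t-test or without the 2 arrays that stood apart, 2 after quantile normalization, and 4 without the 40% of genes with the lowest mean. For WBKO against WT with GW4064 (0 genes), it was 1 with array weights. For WBKO against WT averaged over treatments (0 genes), it was 1 with array weights, without the 40% of genes with the lowest mean, or without the 2 arrays that stood apart. At the methods' thresholds, 1.5-fold and an unadjusted p, limma called 10 genes for LKO against WT with vehicle, 14 for WBKO against LKO with vehicle, 8 for LKO against WT with GW4064, 4 for WBKO against WT with GW4064, 1 for WBKO against WT averaged, 5 for GW4064 in WT, 5 in LKO and 1 averaged over genotypes. The share of all genes that meets both of these thresholds was not computed. Unadjusted p below 0.05 alone called 12.6%, 12.2%, 14%, 19%, 22.3%, 12.6%, 5.02% and 9.59% of all genes in these comparisons, in the same order. The cause of the changes in count was not tested.

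With replicate number as a block, although pairing by number was not settled, the count was 2 for LKO against WT with GW4064 (1 higher and 1 lower), 2 for WBKO against LKO with vehicle and 12 over the 6 groups, and the counts of the other comparisons were as without it. Leaving out each array in turn gave 0 to 4 genes for LKO against WT with vehicle, 0 to 8 for WBKO against LKO with vehicle, 0 to 5 for LKO against WT with GW4064, 0 to 3 for WBKO against WT with GW4064, 5 to 12 for LKO against WT averaged, 12 to 17 for WBKO against LKO averaged, 0 to 3 for WBKO against WT averaged, 0 to 2 for GW4064 in WT and 0 to 1 for GW4064 averaged. The median difference over the 26 genes ranged from 0.051 to 0.42 for WBKO against WT with GW4064, and from -0.19 to 0.12 for the GW4064 effect of LKO minus WBKO. The alternative of leaving out the 2 arrays that stood apart and the comparisons averaged over treatments were chosen after seeing the data.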
